A study of Rattus norvegicus and Mus musculus with 10 samples.

Results

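The CD8 T cell cluster of mouse dura, named CD8Tc in the authors' deposited annotation, held 466 cells. They made up 226 of 4579 annotated cells of an EAE library and 240 of 2776 annotated cells of a naive library, out of 28542 annotated cells of mouse and rat in the whole series. Every barcode with that cluster name was taken, whatever its expression. Experimental autoimmune encephalomyelitis (EAE) is a model of multiple sclerosis in which immunization starts an attack on myelin. The EAE library came from 3 pooled C57BL/6 mice taken when active disease was at its peak, and the naive library from 4 pooled C57BL/6 mice that had not been immunized. In both, leukocytes of the skull dura, the outer layer of the meninges, were sorted as CD45+ cells that an antibody injected into the blood had not reached, so cells within vessels were left out. Each group is therefore 1 sample with no replicate, the mice of a pool cannot be separated, and no difference between EAE and naive dura could be tested. All intervals given are 95% intervals that cover counting error only.

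CD8 T cells recognise peptides on MHC class I molecules with an alpha beta T cell receptor and the coreceptor CD8, a dimer of the products of Cd8a and Cd8b1. Naive and recirculating cells use homing receptors such as Ccr7 to enter lymph nodes, whereas memory cells that settle in a tissue carry receptors such as Cxcr6 and release chemokines and interferon gamma when they meet antigen. Effector cells kill targets with perforin and granzymes, and some mouse CD8 T cells also carry inhibitory receptors of the Ly49 family (Klra genes) that are better known from NK cells.

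CD8Tc cells had a median of 6965 UMIs (unique molecular identifiers, each counting 1 captured transcript) in the EAE library, with a range of 5768 to 20301, and 4137.5 UMIs in the naive library, with a range of 787 to 14970. The shallowest annotated cell of any cluster had 5722 UMIs in the EAE library and 503 in the naive library, so the libraries differed in the depth at which barcodes were kept. Only 42 naive CD8Tc cells reached the EAE minimum. The female transcript Xist was found in 0 EAE and 125 naive CD8Tc cells, and a Y-linked transcript in 141 EAE and 21 naive CD8Tc cells, with no cell carrying both. The pools thus differed in the sex of the mice as well as in disease, and their effects cannot be told apart except through the 21 naive cells with a Y-linked UMI. The libraries shared 7 barcode sequences, of which 1 belonged to a CD8Tc cell. Transcripts of neutrophils were found throughout the EAE library, and their values are given beside the results they touch.

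The name of the cluster was checked first against the markers of the lineage. A CD3 transcript was found in 226 of 226 EAE and 238 of 240 naive cells, and a constant region of the alpha beta receptor in 225 and 238 cells. The constant region does not set the cluster apart, as it was also found in 151 of 154 EAE and 99 of 106 naive NK cells, where CD3 was found in 45 and 26. A UMI of Cd8a or Cd8b1 was found in 88 of 226 EAE cells (38.9%, interval 32.5 to 45.6) and in 82 of 240 naive cells (34.2%, interval 28.2 to 40.5). Most cells of the cluster thus had no captured CD8 transcript in either library. Among the cells that had one, the median was 3 CD8 UMIs in EAE and 4 in naive cells, and 56 EAE and 51 naive cells had 3 or more.

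With each cell thinned to 1000 UMIs, so that depth was equal, the share with a CD8 UMI was 17.4% in EAE and 20.4% in naive CD8Tc cells. At the same depth it was 1.3% and 0.6% in the CD4Tc cluster, 0.6% and 0.3% in gamma delta T cells, and 0.1% and 0.5% in NK cells. CD4, gamma delta and NK cells should lack the dimer, so their shares serve as the background of free RNA, and the CD8Tc shares lay well above it. Cd8a (GRCm38 chr6:71373427-71379173, plus strand) stood at 122 CPM (UMIs of a gene per 1000000 UMIs of the same cells) in EAE and 153 CPM in naive CD8Tc cells, and its neighbour Cd8b1 (chr6:71322788-71337494, plus strand) 195 and 238 CPM. The cluster named CD4Tc had a Cd4 UMI in 105 of 152 EAE but 22 of 353 naive cells, and a CD3 UMI in 147 and 141, so in the naive library its markers go against its name. The CD8Tc cluster did not hold all CD8 transcripts. The cluster named Treg had 108 CPM of Cd8b1 in its 116 EAE cells and 335 in its 30 naive cells, and the cluster named pDC carried a CD8 UMI in 82 of 126 EAE and 26 of 48 naive cells.

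**Figure D1:**
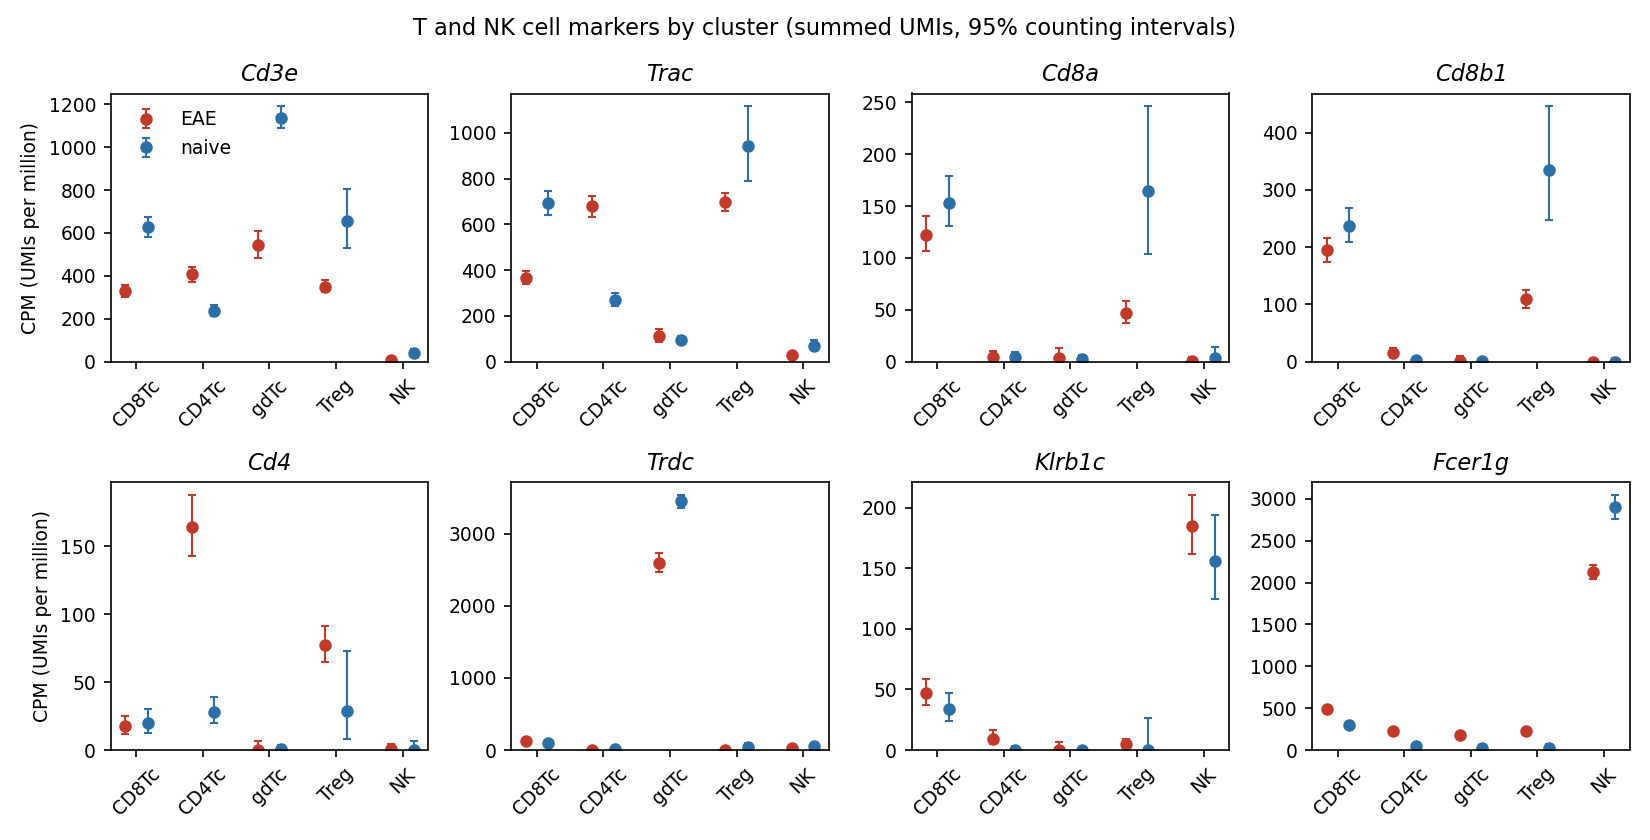
Summed level (CPM, with 95% counting intervals) of 8 lineage markers in T and NK cell clusters, EAE in red beside naive in blue. Cd8a and Cd8b1 are high in CD8Tc and Treg clusters and near 0 in CD4Tc, gdTc and NK clusters, while Trdc marks gdTc and Klrb1c and Fcer1g mark NK cells.

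Markers of other lymphocytes were present in a minority of CD8Tc cells. A Cd4 UMI was found in 14 EAE and 19 naive cells, and a UMI of Trdc, the constant region of the gamma delta receptor, in 32 EAE and 24 naive cells. Of the cells with a Cd4 UMI, 2 EAE and 1 naive cell also had a CD8 UMI, and of those with Trdc, 2 in each library. Cd40lg, the ligand that helper T cells use to activate B cells, was found in 2 EAE and 35 naive cells, and none of its 82 naive UMIs lay in a cell with a CD8 UMI. The cluster was therefore described both as a whole and for its cells with a CD8 UMI. NK markers were unequal. Ncr1 and Klra8 stood at 4.7 and 0.59 CPM in EAE and 5.7 and 5.7 in naive CD8Tc cells, beside 109 and 137 CPM of Ncr1 in EAE and naive NK cells. Klrb1c (NK1.1) stood at 47.0 CPM in EAE and 34.1 in naive CD8Tc cells, in 47 and 26 cells, beside 185 and 156 CPM in NK cells. Fcer1g was found in 164 EAE and 70 naive CD8Tc cells, and the whole NK list summed to 1265 CPM in EAE and 735 in naive CD8Tc cells. At 1000 UMIs Fcer1g was found in 32.0% of EAE and 15.2% of naive CD8Tc cells. It was also found in 14.0% and 2.9% of the CD4Tc cluster and 32.4% and 2.8% of the B cell cluster, which had 25 EAE cells. The part of free RNA in these CD8Tc levels was not tested.

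Cells with and without a captured CD8 transcript differed within each library. Their median depth was 7107 and 6921 UMIs in EAE and 4565.5 and 3874.5 UMIs in naive dura, and which cells yield a CD8 UMI depends in part on depth. Gzma, a granule protease of killer cells, stood at 472 CPM in EAE cells with a CD8 UMI and 25.0 in those without, and at 142 and 57.6 in naive cells. Gzmk, a granzyme typical of memory CD8 T cells, stood at 32.8 and 5.0 CPM in EAE and 167 and 42.0 in naive cells. Both granzymes were thus higher in the cells with a CD8 UMI in both libraries, but 88.5% of the EAE and 83.3% of the naive Gzma UMIs lay in 5 cells. Gzmb and Dapl1 lay the same way, with Dapl1 at 111 and 27.0 CPM in EAE and 130 and 21.8 in naive cells.

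Other genes were higher in the cells without a CD8 UMI. Fcer1g, a signalling adaptor of NK and myeloid receptors, stood at 255 CPM in EAE cells with a CD8 UMI and 662 in those without, and at 121 and 419 in naive cells. The Ly49 gene Klra1 stood at 55.6 and 120 in EAE and 19.3 and 131 in naive cells. Xcl1, a chemokine for cross-presenting dendritic cells, stood at 178 and 378 CPM in EAE and 927 and 2027 in naive cells. Trdc was nearly restricted to cells without a CD8 UMI, at 2.9 and 205 CPM in EAE and 4.8 and 153 in naive cells.

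**Figure D2:**
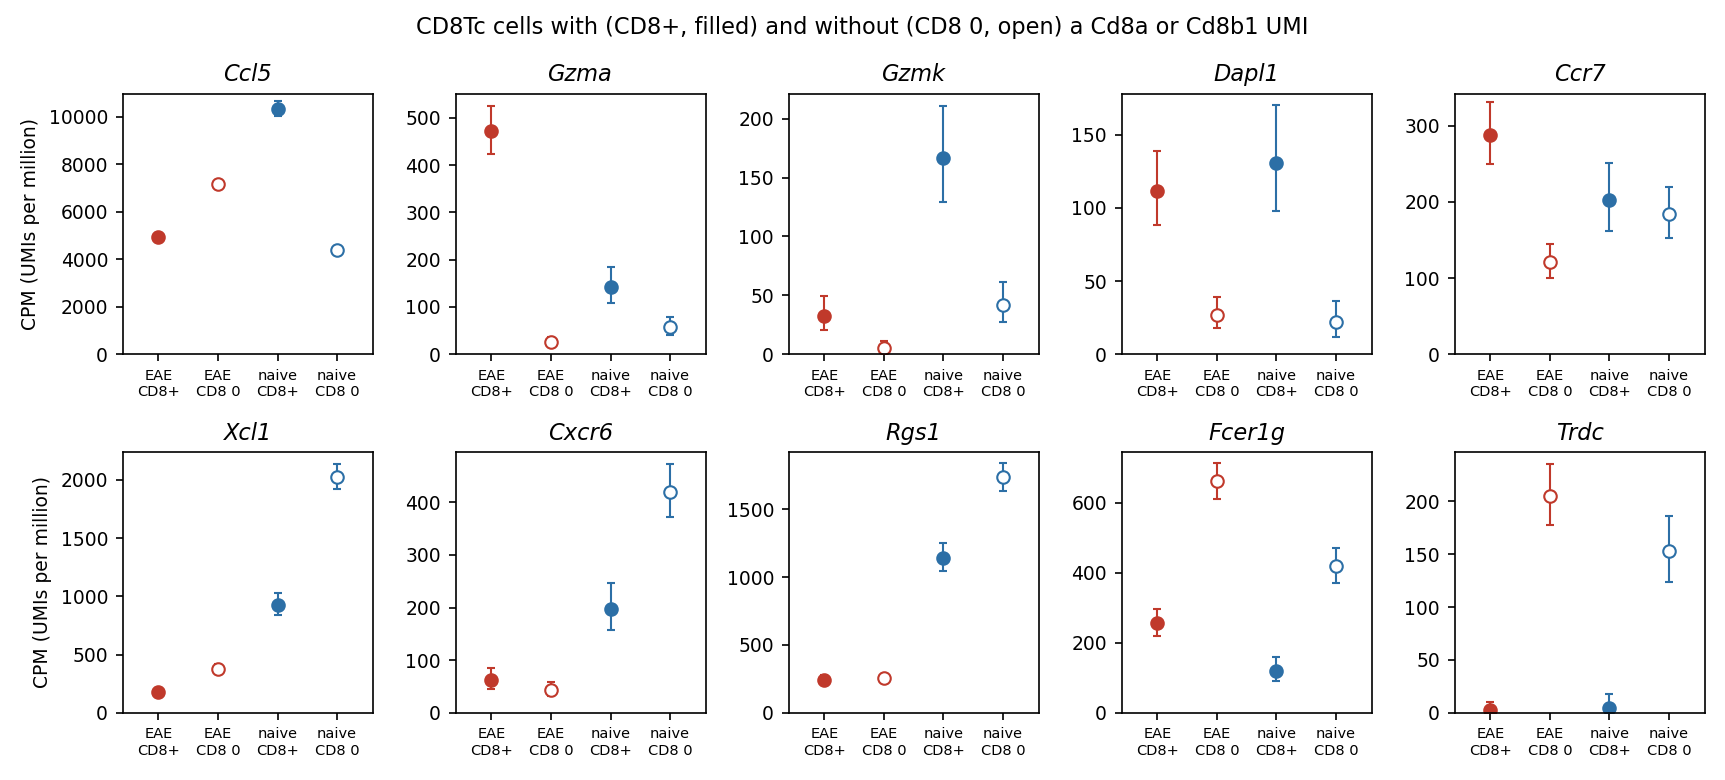
Level (CPM, with 95% counting intervals) of 10 genes in CD8Tc cells with (filled) and without (open) a UMI of Cd8a or Cd8b1, EAE in red and naive in blue. Gzma, Gzmk and Dapl1 are higher with a CD8 UMI and Xcl1, Fcer1g and Trdc without one in both libraries, while Ccl5 lies one way in EAE and the other way in naive cells.

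The genes that led the cluster over all other annotated cells of its library, which describe how the authors' clustering set it apart and are no test, began with Dapl1, Klra6, Tdrp, Klra1 and Kcnj8 in EAE. In naive dura they began with Nsg2, Klra6, Tdrp, Dapl1 and Gzmk. Cd8a ranked 24 and Cd8b1 27 in EAE, and 6 and 9 in naive cells. The Ly49 gene Klra6 thus ranked ahead of Cd8a and Cd8b1 in both libraries, and Klra1 did so in EAE only. As given above, Klra1 was higher in the cells without a CD8 UMI in both libraries.

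CD8Tc cells made up 226 of 727 T and NK cells in EAE (31.1%, interval 27.7 to 34.6) and 240 of 1108 in naive dura (21.7%, interval 19.3 to 24.2). This share depended on which cells were kept and on the denominator. Among naive cells at or above the EAE minimum of 5722 UMIs, CD8Tc cells were 42 of 119 (35.3%, interval 26.8 to 44.6), which lies above the EAE share. Of all annotated cells they were 4.94% in EAE and 8.65% in naive dura. No direction of change in abundance can be read from these shares.

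The comparison of EAE with naive dura was made on the summed counts of the CD8Tc cells of each library. Of 7069 genes with 20 or more UMIs over both libraries, 451 were 2-fold or more higher in EAE (6.38%) and 560 were 2-fold or more lower (7.92%), and the median log2 ratio was -0.09. The split depended on scaling and on which naive cells were compared. Against the 42 naive cells at or above the EAE minimum, 692 of 6286 genes were higher and 458 lower. TMM factors, which moved the median by 0.11 on the log2 scale, gave 592 higher and 419 lower, and leaving ribosomal and mitochondrial genes out of the total, which moved it by 0.21, gave 698 and 345. Among cells with a CD8 UMI, 378 of 4669 genes were 2-fold or more higher (8.1%) and 388 were lower (8.31%). These shares of all genes are the background for the counts of each gene group of CD8Tc cells given below. Mitochondrial transcripts were 2.97% of UMIs in EAE and 1.51% in naive CD8Tc cells.

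The genes with the clearest excess in EAE cells were those of neutrophils and macrophages. S100a8, a calcium-binding protein of neutrophils, stood at 1275 CPM in EAE and 63.4 in naive CD8Tc cells, a 20.1-fold excess (interval 15.8 to 26.0). It was found in 226 of 226 EAE cells, with 2 to 48 UMIs each, and in 54 of 240 naive cells, with at most 4. Next by the same rule came Lcn2, Ltf, Ccl8, S100a9, Retnlg, Hp, Ngp, Ifitm1, Apoe, Camp and Chil3, of which all but Ccl8, Ifitm1 and Apoe belong chiefly to neutrophils, their precursors or monocytes. Ccl8, a monocyte-attracting chemokine, was found in 31 EAE cells and had 72.5% of its UMIs in 5 of them.

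After Xist, the clearest deficits by the same rule were Hspa1b, Hspa1a, Cd40lg, Ighg3, Hbb-bs and Calca. Hspa1b, which encodes the inducible chaperone HSP70, stood at 5.29 CPM in EAE and 410 in naive cells, a 77.5-fold deficit (interval 40.4 to 171). Hspa1a, its twin gene, stood at 14.1 and 349 CPM, and reads of these near-identical copies may have been split by the counting. Xist had 0 UMIs in EAE against 277 in naive cells and was at least 148.7-fold lower, counting 3 UMIs as the limit of an observed 0. Cd40lg had 4 UMIs in EAE against 82 in naive cells, a ratio of 33.0 (interval 12.4 to 124), and its log2 ratio of -5.05 became -1.98 against the 42 deep naive cells. Ighg3 and Hbb-bs, antibody and haemoglobin transcripts that T cells do not make, had 0 UMIs in EAE against 29 and 26 in naive cells. Ccl4, Rgs1, Spry1, Dusp1 and Cxcr6 came next.

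**Figure D3:**
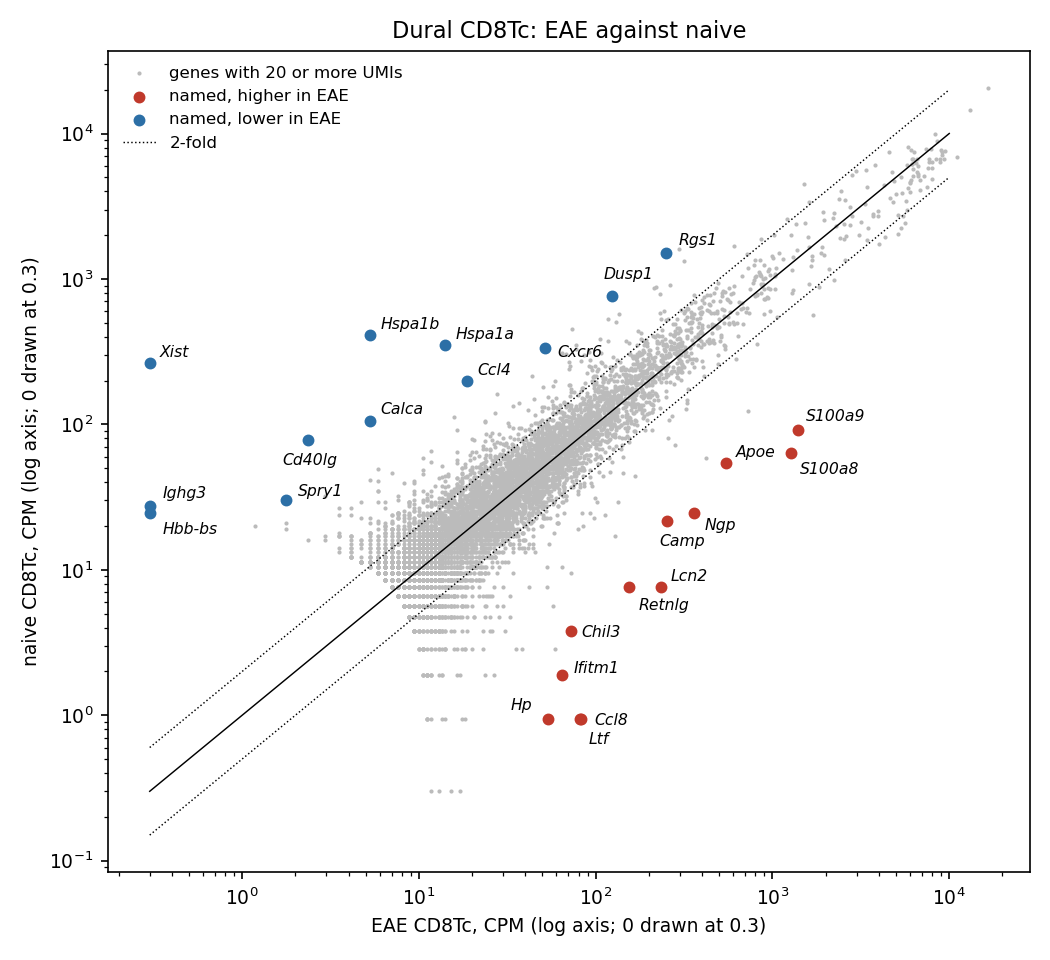
Level of each of 7069 genes in CD8Tc cells of EAE dura (horizontal axis, CPM, log scale) and naive dura (vertical axis, CPM, log scale), with dotted lines at 2-fold and the 12 leading genes each way named. Neutrophil genes such as S100a8 (1275 CPM in EAE and 63.4 in naive cells) lie below the diagonal, and Xist, Hspa1b, Cd40lg, Cxcr6 and Rgs1 lie above it.

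None of 14 T cell identity genes differed by 2-fold, and their median log2 ratio was -0.33. Trac, the alpha chain constant region, stood at 366 CPM in EAE and 692 in naive cells, and Cd3e at 328 and 627, both just under 2-fold lower. B2m, the invariant chain of MHC class I, stood at 1601 CPM in EAE and 3383 in naive cells, a 2.11-fold deficit (interval 2.01 to 2.22) that was as large in cells with a CD8 UMI. Its log2 ratio of -1.08 became -0.97 with TMM factors, just under 2-fold.

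Genes of naive and recirculating T cells had a median log2 ratio of -0.03 over 17 genes, 2 of them 2-fold or more higher and 1 lower. Bcl2, which protects resting lymphocytes from apoptosis, stood at 269 CPM in EAE and 114 in naive cells, and Ccr7, the lymph node chemokine receptor, at 190 and 191. Bcl2 was thus higher in EAE while Ccr7 was level. In cells with a CD8 UMI 4 of 16 genes of this group were 2-fold or more higher, beside 8.1% of all genes, and 1 was lower, beside 8.31%. There the log2 ratio was 2.03 for Bcl2.

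Of 10 tissue residency genes measured, 5 were 2-fold or more lower, beside 7.92% of all genes, and 2, Ahr and Cd101, were higher, beside 6.38%. Their median log2 ratio was -0.92, and 3 lay above 0. Cxcr6, the receptor for CXCL16, stood at 51.7 CPM in EAE and 333 in naive cells, a 6.44-fold deficit (interval 5.09 to 8.23), and was found in 38 EAE and 120 naive cells. Rgs1, a brake on chemokine signalling that is high in tissue T cells, stood at 249 CPM in EAE and 1503 in naive cells. Bhlhe40, a transcription factor of resident cells, stood at 77.6 and 352 CPM. Itgae, the CD103 integrin chain, had 5 EAE and 3 naive UMIs, too few to compare. Over cells with a CD8 UMI, 4 of 7 genes were lower and none higher. There the log2 ratio was -1.66 for Cxcr6, -2.24 for Rgs1 and -1.78 for Bhlhe40. Against the 42 deep naive cells the ratios were -1.72, -1.83 and -2.04, and against the 21 naive cells with a Y-linked UMI they were -1.80 for Cxcr6 and -2.53 for Rgs1. Cxcr6 and Rgs1 thus lay lower in EAE in each of these comparisons.

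Cytokines and chemokines were the T cell group with the lowest median, -1.38 over 10 genes. Of these 6 were 2-fold or more lower, beside 7.92% of all genes, and none was higher, beside 6.38%. Xcl1 stood at 296 CPM in EAE and 1596 in naive cells, a 5.40-fold deficit (interval 4.88 to 5.98). Ifng, which activates macrophages, stood at 27.6 and 162 CPM, and Ccl4, a chemokine released by activated CD8 T cells, at 18.8 and 199. The rest of those lower were Areg, Tnf and Flt3l. Ccl5, the most abundant of these 10 genes, was near level at 6239 CPM in EAE and 6727 in naive cells. That level did not hold within the cluster, since the log2 ratio of Ccl5 was -1.07 in cells with a CD8 UMI and 0.70 in cells without.

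Cytotoxic genes had a median log2 ratio of 0.00 over 14 genes, with 2 higher and 3 lower. Gzma stood at 209 CPM in EAE and 90.9 in naive cells, with most of its UMIs in a few cells. Its log2 ratio of 1.20 was under 2-fold in other settings, at 0.56 against the 42 deep naive cells and 0.64 with equal weight per cell. Gzmk stood at 16.5 and 90.9 CPM, a 5.52-fold deficit (interval 3.59 to 8.74). Fasl, the death ligand, stood at 75.8 and 167 CPM, but its log2 ratio was only -0.14 against the deep naive cells. Nkg7, a granule membrane protein, was level at 1034 and 1056 CPM, and Prf1, perforin, had 48 UMIs in EAE and 26 in naive cells. Of these genes Gzmk was thus lower, Nkg7 was level, and the differences of Gzma and Fasl depended on the cells compared.

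NK-type receptors had a median log2 ratio of 0.25 over 13 genes, with Tyrobp and Klra6 2-fold or more higher and none lower. Of 12 such genes measured in cells with a CD8 UMI, 4 were higher, beside 8.1% of all genes. None was lower there, beside 8.31%, and the median was 0.05. Tyrobp, the adaptor DAP12, stood at 329 CPM in EAE and 140 in naive CD8Tc cells. It also stood at 260 and 32.2 in the CD4Tc cluster and 253 and 24.2 in gamma delta T cells, it is abundant in myeloid cells, and the part of free myeloid RNA in its CD8Tc level was not tested. The Ly49 gene Klra6 stood at 45.8 CPM in EAE and 22.7 in naive CD8Tc cells, against 0 in the CD4Tc cluster of both libraries. Against the 42 deep naive cells the log2 ratios were 0.50 for Tyrobp and 0.19 for Klra6, neither past 2-fold.

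Among 18 transcription factors 4 were higher and 5 lower, with a median of -0.31. Ikzf2, encoding Helios, stood at 259 CPM in EAE and 107 in naive cells, and Eomes, a factor of memory and NK cells, at 38.2 and 14.2. Both ratios were smaller against the 42 deep naive cells, with log2 values of 0.43 and 0.82 beside 1.27 and 1.43 for all cells. Irf8 and Zeb2 were also higher, and both are strongly expressed by myeloid cells. Nr4a1, which T cell receptor signals induce, stood at 77.6 CPM in EAE and 331 in naive cells, and Id2, a factor of effector and resident cells, at 107 and 310. Gata3, Nr4a3 and Rora were lower as well. Against the deep naive cells Id2 stood at -0.93 and Gata3 at -0.78 on the log2 scale.

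Of 17 costimulatory and checkpoint genes, 7 were 2-fold or more lower, beside 7.92% of all genes, and none was higher. Their median was -0.66, and 4 lay above 0. Icos stood at 91.7 CPM in EAE and 315 in naive cells, a 3.44-fold deficit (interval 2.83 to 4.19), and Cd28 at 113 and 253 CPM, with a log2 ratio of -0.78 against the deep naive cells. Among the inhibitory receptors, Ctla4 stood at 23.5 and 54.9 CPM, whereas Pdcd1 was near level at 60.5 and 66.3. In cells with a CD8 UMI 3 of 13 were lower and 1 higher. Chemokine receptors and adhesion molecules had 3 of 13 genes lower and none higher. Cxcr4, the receptor for CXCL12, stood at 68.2 CPM in EAE and 303 in naive cells, and Cxcr3, the receptor for interferon-induced chemokines, at 75.8 and 117.

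Immediate early and heat shock genes were lower in 7 of 17 cases, none was higher, and the median was -0.89. These genes respond to receptor signals and to cell stress. Dusp1, a phosphatase induced by stress, stood at 123 CPM in EAE and 763 in naive cells. Hspa1b was lower in EAE in the CD4Tc cluster too, at 1.6 against 233 CPM, and in gamma delta T cells at 14.1 against 465. Dusp1 stood at 78.3 against 715 and 209 against 717 in those clusters. In NK cells Hspa1b had 1 UMI in EAE and 5 in naive cells, and Dusp1 stood at 146 against 404 CPM. The list had 10 of 17 genes lower and none higher in CD4Tc and in gamma delta T cells, but 4 of 15 lower and 3 higher in NK cells. Over all measured genes 670 of 7192 were lower in CD4Tc, 557 of 6620 in gamma delta T cells and 438 of 6204 in NK cells. In NK cells 497 of all measured genes were higher. Hspa1b and Dusp1 thus lay lower in EAE beyond the CD8Tc cluster, and their part in the other lower genes of CD8Tc cells was not tested.

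Over all CD8Tc cells the type I interferon response was mixed, with 9 of 25 genes higher, 3 lower and a median of 0.64. The Ifitm genes, which block virus entry, led it, with Ifitm3 at 168 CPM in EAE and 44.5 in naive cells and Ifitm1 at 64.1 and 1.89. Ifitm1 was higher in EAE in the CD4Tc cluster too, at 100 against 2.4 CPM, and in NK cells, at 259 against 1.9, and neutrophils and monocytes express these genes. Isg15, a ubiquitin-like protein, lay the other way at 91.1 CPM in EAE and 252 in naive CD8Tc cells. In cells with a CD8 UMI 10 of 19 genes of the type I list were higher, beside 8.1% of all genes. There 1 was lower, beside 8.31%, and the median was 1.08. In cells without a CD8 UMI 5 of 20 were higher and 3 lower, with a median of 0.25. Over all 5815 genes measured in those cells, 363 were higher and 575 lower. Outside the CD8Tc cluster 10 of 17 genes of the type I list were higher in gamma delta T cells, 8 of 20 in CD4Tc and 5 of 18 in NK cells. Over all genes measured these clusters had 553 of 6620, 1233 of 7192 and 497 of 6204 higher. Lower in the same order were 1, 3 and 2 of the list, beside 557, 670 and 438 of all genes. The list medians were 1.28, 0.57 and -0.004. Interferon gamma and class I genes had a median of 0.06 in CD8Tc cells, with B2m and Irgm1 of 21 lower.

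Proliferation genes were 4 of 15 higher and 1 lower. Hist1h2ap, a replication histone, stood at 72.3 CPM in EAE and 9.47 in naive cells, but Mki67 had 7 and 2 UMIs and Top2a 31 and 26. Survival genes had 4 of 17 lower and Bcl2 higher, and the activation-induced Bcl2a1b stood at 262 CPM in EAE and 905 in naive cells. Genes of glycolysis and hypoxia had 1 of 16 higher and 3 lower, among them Hilpda, a lipid droplet protein, at 64.1 and 310 CPM. T cell receptor signalling genes had 2 of 18 lower, none higher and a median of -0.32.

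**Figure D4:**
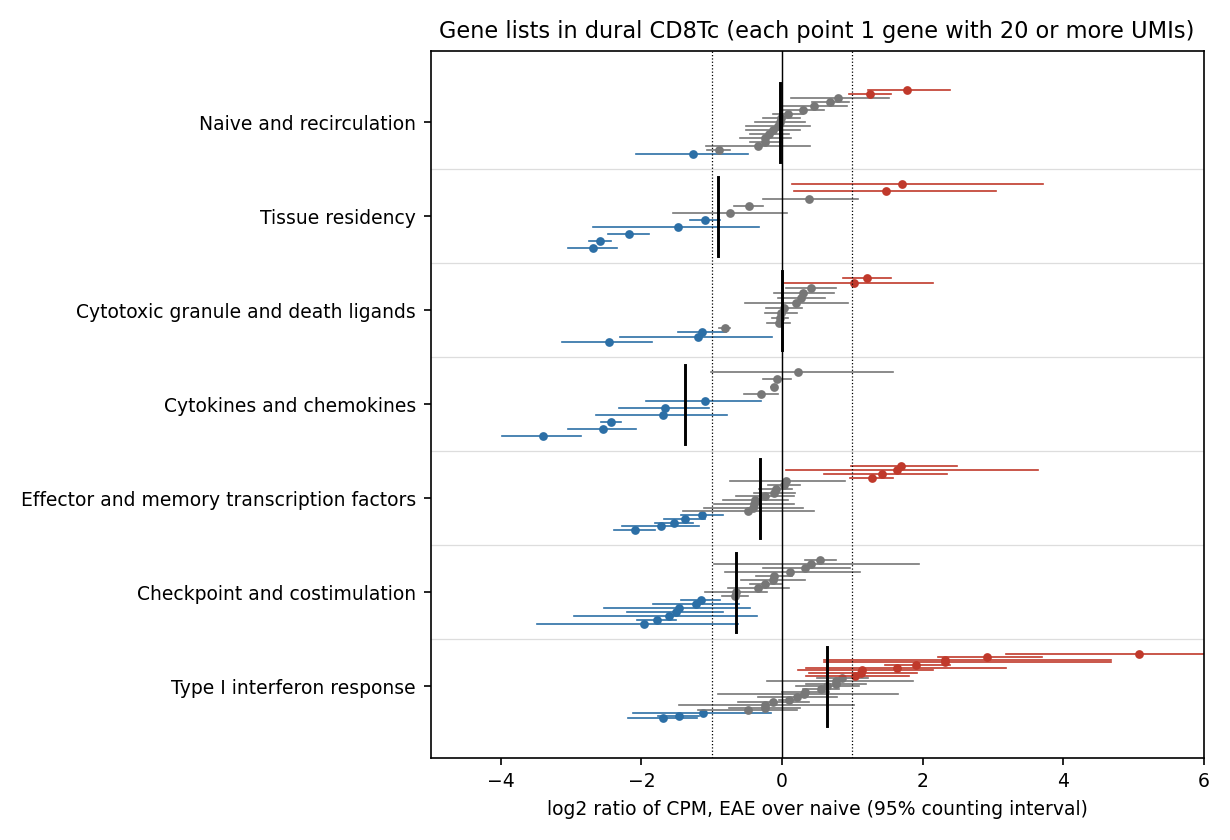
Log2 ratio of CPM, EAE over naive, of each measured gene (points with 95% counting intervals) of 7 gene groups in CD8Tc cells, with genes past 2-fold in red (higher) or blue (lower) and a black bar at each median. The medians are lowest for cytokines and chemokines at -1.38 and for residency at -0.92, and highest for the type I interferon response at 0.64.

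Transcripts of other cell types were measured for whole marker lists. All 10 measured neutrophil genes were 2-fold or more higher, and the list summed to 4307 CPM in EAE and 291 in naive CD8Tc cells. The macrophage list had 8 of 10 genes higher and summed to 1114 and 246 CPM, and the class II list had 4 of 5 higher and summed to 2038 and 933. The B cell list had 2 genes measured, neither past 2-fold, and summed to 200 and 330 CPM. At 1000 UMIs, S100a8 was found in 70.6% to 75.1% of cells of the EAE clusters compared and in 4.1% to 6.0% of those of the naive library. The share of cells with this neutrophil transcript was thus similar across lymphocyte clusters within a library. Leaving the genes of these lists out of the library total gave 455 higher and 555 lower genes, against 451 and 560.

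**Figure D5:**
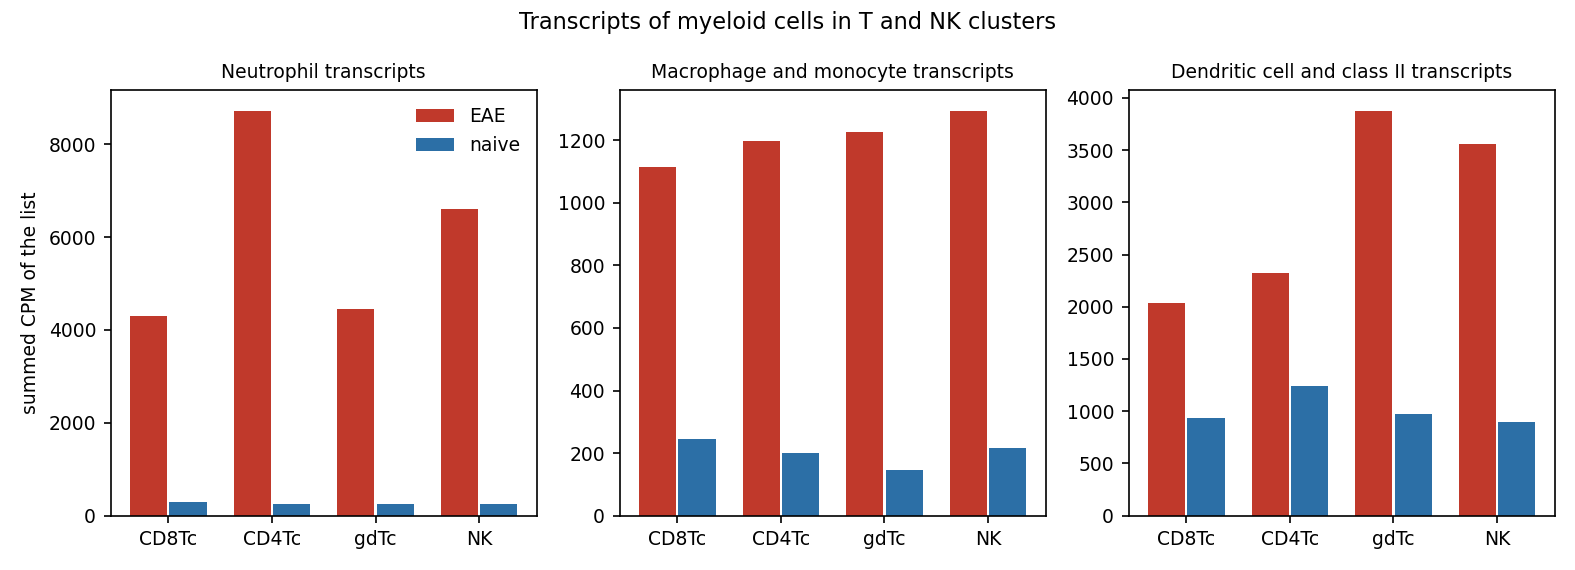
Summed CPM of the neutrophil, macrophage and class II lists in CD8Tc, CD4Tc, gdTc and NK clusters, EAE in red beside naive in blue. Every EAE bar is higher than the naive bar of its cluster, and for neutrophil transcripts CD8Tc cells have 4307 CPM in EAE and 291 CPM in naive dura.

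The leading differences of CD8Tc cells were set beside the same genes in 3 other lymphocyte clusters, without a test. Cxcr6 had a log2 ratio of -2.69 in CD8Tc, 0.18 in the CD4Tc cluster, -0.80 in gamma delta T cells and -2.80 in NK cells. Rgs1 had ratios of -2.59, 0.13, -1.02 and -1.42 in the same order. For Ifng they were -2.55 in CD8Tc, 0.08 in CD4Tc and -2.93 in NK cells. The CD4Tc values compare unlike cells. There 9 of 13 T cell identity genes were 2-fold higher in EAE, beside 1233 of all 7192 genes measured. Of ILC genes 10 of 11 were lower, beside 670 of all 7192. No nearness between clusters is therefore read from the CD4Tc values. Xcl1 had ratios of -2.43 in CD8Tc and -2.35 in NK cells, and it was nearly absent from gamma delta T cells, with 0 and 11 UMIs. Bcl2 was higher in EAE in NK cells too, at 1.47 beside 1.24 in CD8Tc, whereas it was -0.73 in CD4Tc. Ikzf2 was 1.27 in CD8Tc, 0.25 in NK cells and -3.48 in CD4Tc. None of these genes was shown to be particular to CD8Tc cells.

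Receptor gene segments were captured in few cells, since the libraries read the 3' end of transcripts. A Trbv segment was found in 16 EAE cells, with 17 UMIs, and in 33 naive cells, with 34 UMIs. Trbv12-2 led in both, with 4 of 17 UMIs in EAE (23.5%, interval 6.81 to 49.9) and 12 of 34 in naive cells (35.3%, interval 19.7 to 53.5), and the intervals overlap. Each of these UMIs lay in a cell of its own. Trav segments were found in 32 EAE and 30 naive cells, led by Trav12-2 with 7 of 44 UMIs in EAE and Trav16 with 8 of 35 in naive cells. The gamma chain segment Trgv2 was found in 30 EAE cells with 41 UMIs and in 17 naive cells with 18 UMIs, and Trdv segments in 10 EAE and 1 naive cell. At this depth nothing can be read about the expansion of clones.

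Antibody contigs, assembled by the authors from receptor transcripts enriched out of the same kind of library, also carried barcodes of CD8Tc cells. Of the EAE contig table, 38 of 226 EAE CD8Tc barcodes (16.8%, interval 12.2 to 22.3) had at least 1 contig, 146 contigs in all, with a median of 11 and a maximum of 60 UMIs. The share was 15.1% in the CD4Tc cluster, 16.5% in gamma delta T cells, 16.2% in NK cells and 17.4% over all annotated EAE cells, against 72.0% of the 25 cells of the B cell cluster. CD8Tc barcodes thus carried antibody contigs at a share close to that of the other T and NK clusters. The naive contig table matched 0 of 240 naive CD8Tc barcodes, and the EAE table matched 1 of them. The naive table also matched 0 of 2776 annotated naive cells, among them 0 of 74 cells of the B cell cluster. Its 0 therefore cannot tell whether naive CD8Tc cells carry antibody contigs, and no limit is read from it. The labels of the contig samples name conflicting conditions, and the tables are called here by their titles.

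Of the junctions (CDR3) that recurred on CD8Tc barcodes, 3 light chains and the leading heavy chain are shown as examples, because the same sequences recurred over the other cells of the library. They are given as deposited, 5' to 3', with the first and the last codon in capitals, and lie at the kappa locus on chromosome 6 or the heavy chain locus on chromosome 12.
IGKV15-103 with IGKJ1: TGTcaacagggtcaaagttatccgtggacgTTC
IGKV9-124 with IGKJ4: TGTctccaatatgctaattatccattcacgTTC
IGKV3-4 with IGKJ1: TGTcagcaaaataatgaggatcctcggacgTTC
IGHV8-8 with IGHJ4: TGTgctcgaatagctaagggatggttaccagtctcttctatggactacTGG
The IGKV15-103 junction was on 34 of the 38 CD8Tc barcodes and on 738 of 757 other barcodes with a contig. The IGKV9-124 junction was on 22 of 38 and 531 of 757, IGKV3-4 on 17 and 330, and the heavy chain IGHV8-8 on 9 and 221. As shares of CD8Tc and other barcodes these were 89.5% and 97.5% for IGKV15-103, 57.9% and 70.1% for IGKV9-124, 44.7% and 43.6% for IGKV3-4, and 23.7% and 29.2% for IGHV8-8. Each junction thus recurred in both kinds of barcode. Of those not shown, the IGKV6-23 junction was on 18 of 38 CD8Tc and 341 of 757 other barcodes and the IGKV1-88 junction on 10 and 305.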

How the data were processed

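Mouse dura leukocytes were measured with droplet 3' RNA sequencing (version 3 chemistry, per the labels' protocols). The deposited matrix holds raw UMI counts per gene and barcode, which the authors counted with Cell Ranger 3.1.0 (build mm10) per the submitters' processing notes, and clusters and conditions come from the deposited annotation, whose method is not given in the sources used here. Contig tables hold deposited UMI counts per contig. Groups were taken from sample titles, since the characteristics name EAE for both libraries.

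Counts of CD8Tc cells were summed per library and divided by their total (CPM). Total UMIs were 1701493 in EAE and 1056267 in naive cells. Ratios carry exact conditional binomial 95% intervals, levels exact Poisson and shares Clopper-Pearson intervals. Genes needed 20 UMIs over both libraries, a difference was counted at 2-fold, and a count of 0 was set to 3 UMIs per group for bounds. Ratios are EAE over naive. With 1 sample per group no test was possible, and the planned intervals cover counting error only. Per-cell shares were compared after thinning to 1000 UMIs (hypergeometric expectation), which left out 2 naive CD8Tc cells. The ratio and interval code was tested on simulated data.

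Named genes are the 12 each way with the interval bound farthest from 1, leaving out V segments, ribosomal protein genes and unnamed gene models, up to 4 each way from each of 28 lists, all markers, and V segments at 5% of a chain. The members and lists were chosen with earlier results of these data known. Gene positions are from the GRCm38 annotation. Doublets were called with scanpy 1.11.5 (Scrublet), which marked 93 of 5000 EAE and 2 of 3126 naive barcodes and 0 CD8Tc cells. Judged by its share it did not work in the naive library. Doublets were not removed from the main results. Leaving out marked barcodes of both libraries gave CD8Tc shares of T and NK cells of 31.5% in EAE and 21.7% in naive dura. TMM factors came from edgeR 4.0.16, used on the counts for scaling only. Python 3.11.15 was used otherwise. One gene of the recirculation list is not reported here.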

Additional observations from a re-analysis of the deposited data

Results flagged for a closer look

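In 6 genes named in the lists the difference between EAE and naive CD8Tc cells had opposite directions in cells with and without a captured CD8 transcript, with neither counting interval of the EAE over naive ratio reaching 1. The difference between the 2 kinds of cell was not tested, since each is 1 sample per library. Genes higher with and lower without a CD8 UMI also needed a minimum ratio in the cells with one. No such minimum was set for the opposite direction, so 6 may not be the full count. Lists of myeloid, B, mast, erythroid and stromal cells and of sex-linked genes were left out. Satb1, a chromatin organiser of T cells, had a log2 ratio of 1.06 in cells with a CD8 UMI and -0.34 in cells without. Gzma had 1.73 and -1.21, but 88.5% of its EAE and 83.3% of its naive UMIs lay in 5 cells, which a counting interval does not cover. Ly6a, an interferon-responsive surface protein, had 1.18 and -1.14. Ccl5 went the other way, with -1.07 and 0.70, as did Itga4, an integrin chain for entry into inflamed tissue, with -1.33 and 0.83. Nr4a2, a receptor-induced transcription factor, had -0.45 and 0.39.

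Antibody contigs were found on 38 EAE CD8Tc barcodes, in a contig table that the expression comparison does not use. The same table matched 1 of 240 naive CD8Tc barcodes.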

How the results depend on the processing

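TMM factors and totals free of ribosomal and mitochondrial genes left 90 and 85 of the 98 genes named by the rule past 2-fold. Equal weight per cell left 96, and totals free of the foreign lists left 98. TMM factors and the changed totals shift the log2 ratio of every gene alike, by 0.11, 0.21 and 0.008. The direction of genes past 2-fold could therefore not change under them. With equal weight per cell, where it could change, all 98 genes kept their direction. Totals free of ribosomal and mitochondrial genes gave 698 higher and 345 lower genes. A minimum of 1 UMI gave 1016 and 1328 of 12825 genes compared, and a stromal list median of -0.32. A minimum of 100 UMIs gave 94 and 191 of 2893 genes compared, with 30 list genes higher and 35 lower. The shares of genes past 2-fold, and not only their number, thus fell as the minimum rose. The 42 naive cells at the EAE depth gave 692 higher and 458 lower of 6286 genes compared, against 451 and 560 in the main results. They also gave 74 of 97 named genes past 2-fold, Gzmm at -0.39, Plcg1 at 0.66 and a mast cell list median of 0.72. Cells with a CD8 UMI and no Cd4 UMI gave Gzmm at -0.10 and Tcrg-C4 at 0.076.

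Further alternatives were chosen after seeing the data. Against the 21 naive cells with a Y-linked UMI, Ccr2 stood at 0.23, Ifi206 at 0.081 and Hdc at -0.39. Cells with no UMI of Cd8a, Cd8b1, Cd4, Trdc or Cd40lg gave 302 higher and 512 lower of 4623 genes compared. Among the higher genes 35 were list genes, and Gzma stood at -2.57 and Tnfsf10 at 0.0068. The cause was not tested. The CD8Tc share of T and NK cells, 9.43 points higher in EAE, became -4.21 at the EAE depth minimum, -3.71 over all annotated cells and 4.70 for CD8Tc cells with a CD8 UMI. The share with a CD8 UMI was 10.9% in EAE and 13.1% in naive cells at 500 UMIs, and 25.2% and 28.1% at 2000. Leaving out cells with 2 or more UMIs of foreign markers was not run, since no EAE cell remained. No paired analysis was possible because each group had 1 sample.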

Other observations

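Transcripts of mast cells and ILCs were also read in CD8Tc cells. Cma1, a mast cell protease, had 6 UMIs in EAE and 25 in naive CD8Tc cells, and Mcpt4, another, had 10 and 31. Calca, a neuropeptide gene of ILCs, stood at 5.29 CPM in EAE and 106 in naive CD8Tc cells, and in the ILC cluster at 404 and 2276 CPM. The cluster named ILC numbered 53 cells in the EAE and 507 in the naive library. A CD3 UMI was found in 38 of its EAE and 54 of its naive cells, and a Cd4 UMI in 20 and 2. In the EAE library its markers thus go in part against its name, and its 2 Calca values compare unlike cells.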
